A study of Mus musculus with 12 samples.

Results

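The hypoxia inducible factors (HIFs) and their regulators were examined as 10 genes, namely *Hif3a*, *Hif1a*, *Epas1*, *Arnt*, *Egln1*, *Egln2*, *Egln3*, *Vhl*, *Hif1an* and *Vegfa*. They were taken by gene symbol from the table of 55304 genes, and all 10 were found and passed the filter on low values (above 0.1 in at least 3 libraries), as did 24736 genes in all. The set was chosen by the measured levels of *Hif3a*, which were high during DEX and low after it. Those levels are therefore given as a description with no test, and only the other 9 genes were tested.

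The libraries were made from *Pomc*-eGFP positive cells sorted from the anterior pituitary of male *Pomc*-eGFP mice on a C57Bl6/J background, 8 weeks old at the start of the experiment and all collected at its end, in which enhanced green fluorescent protein is driven by the *Pomc* promoter. Control mice drank plain water for 8 weeks. The DEX mice drank plain water for 4 weeks and then water with the synthetic glucocorticoid dexamethasone (DEX) at 2.5 µg/ml for 4 weeks. The other groups also had 4 weeks of DEX at this dose, and then 1 week (7 days) or 4 weeks (28 days) of plain water. Per the study, the 1 week group had 3 weeks of plain water before DEX, and the 4 weeks group began with DEX. Age at exposure thus differed between the groups and cannot be told apart from time after DEX. Each group had 3 libraries, each from the pooled pituitaries of about 3 mice of 1 cage (n = 3 pools per group), so the replicate is the pool and not the mouse. All mice carried the reporter, and there was no group without it.

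HIFs are pairs of an alpha subunit, encoded by *Hif1a*, *Epas1* or *Hif3a*, and the beta subunit encoded by *Arnt*. When oxygen is ample, the prolyl hydroxylases encoded by *Egln1*, *Egln2* and *Egln3* mark the alpha subunits for the ubiquitin ligase that contains the *Vhl* product, and the alpha subunits are degraded, while the asparaginyl hydroxylase encoded by *Hif1an* blocks their contact with coactivators. Much of this control acts on the protein, which RNA-seq does not measure. *Hif3a* is the least studied alpha subunit, and some of its splice forms lack a transactivation domain and can hold back the other alpha subunits. *Vegfa*, the main growth factor of blood vessels, is a widely used target gene of the pathway, and the anterior pituitary is a gland with a dense capillary bed.

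The stretch just before the transcription start of 3 of the genes is shown, because the results turn on *Hif3a*, on *Hif1a* as the most abundant alpha subunit and on *Egln3* as the member whose lowest pools were the DEX pools. Each is the 250 bases upstream of the start in RefSeq on GRCm38.p6, written 5′ to 3′ on the strand of the gene, with the core letters of the hypoxia response element in capitals (ACGTG or GCGTG on either strand). They lie at chr7:17062428-17062677 on the minus strand for *Hif3a*, chr12:73907617-73907866 on the plus strand for *Hif1a* and chr12:54203875-54204124 on the minus strand for *Egln3*.
Hif3a: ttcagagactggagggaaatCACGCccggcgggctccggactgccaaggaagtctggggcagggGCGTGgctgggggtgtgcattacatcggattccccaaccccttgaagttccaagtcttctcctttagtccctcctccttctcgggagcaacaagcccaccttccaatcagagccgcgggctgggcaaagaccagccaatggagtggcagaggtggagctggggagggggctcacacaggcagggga
Hif1a: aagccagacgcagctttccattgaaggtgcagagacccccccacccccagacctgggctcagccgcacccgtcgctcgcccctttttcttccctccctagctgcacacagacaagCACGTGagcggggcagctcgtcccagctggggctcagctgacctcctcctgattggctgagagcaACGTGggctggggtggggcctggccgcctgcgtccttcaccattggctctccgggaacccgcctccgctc
Egln3: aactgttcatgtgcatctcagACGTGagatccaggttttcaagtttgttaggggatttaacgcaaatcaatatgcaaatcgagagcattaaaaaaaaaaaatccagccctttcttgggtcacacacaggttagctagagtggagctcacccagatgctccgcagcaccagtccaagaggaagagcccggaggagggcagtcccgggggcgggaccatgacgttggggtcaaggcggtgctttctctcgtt

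The *Hif3a* window held 2 hypoxia cores, the outer one 230 to 226 bases before the start and the inner one 186 to 182 bases before it. The *Hif1a* window held 3 matches, of which 2 overlap each other within the E-box CACGTG, a motif found in 6.02% of all promoter windows. The *Egln3* window held 1 match, 229 to 225 bases before the start. Of the 10 genes, 9 had an entry in the RefSeq table, with 11 windows between them, and *Epas1* had none. The core was present in 8 of the 11 windows and in 38.6% of the 32851 windows of all genes. Neither the glucocorticoid response element in full (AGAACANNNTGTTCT) nor its arm alone (AGAACA, both strands) occurred in any of the 11 windows, against 0.00913% and 16.1% of all windows. In GENCODE release M21 the nearest annotated transcript start was the same base as the RefSeq start for *Hif3a*, lay 14 bases further downstream for *Egln3* and 37 bases further downstream for *Hif1a*, and the bases right after the RefSeq start of *Hif1a* were not found in a GENCODE transcript of the gene. The same was true of the *Vegfa* window that held a core, which lies inside the annotated gene. Its nearest GENCODE start lay 282 bases further downstream. The *Vegfa* window at the start of the annotated gene held no core. These letters were searched in 250 bases only, and a match or its absence says nothing here about binding of a factor.

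*Hif3a* (ENSMUSG00000004328, GRCm38 chr7:17031507-17062427, minus strand) was about 5-fold higher under DEX than in control, and its mean after withdrawal was below that of control. All values below are normalised counts, that is CPM (counts per 1e6 reads) on the TMM-scaled library size. In the control pools *Hif3a* stood at 6.69, 3.06 and 3.37, and in the DEX pools at 21.5, 19.1 and 24.8. It stood at 2.76, 1.53 and 1.45 in the pools 1 week after withdrawal, and at 3.33, 1.97 and 1.08 in the pools 4 weeks after withdrawal. Every DEX pool was far above every pool of the other groups, the 3 pools 1 week after withdrawal all lay below the lowest control pool (as did 2.61% of all tested genes), and the pools at 4 weeks overlapped the control pools. The study listed *Hif3a* among its changed genes, as up under DEX and down at both times after withdrawal. Its list came from these same samples, so the values given here are not independent evidence.

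**Figure D1:**
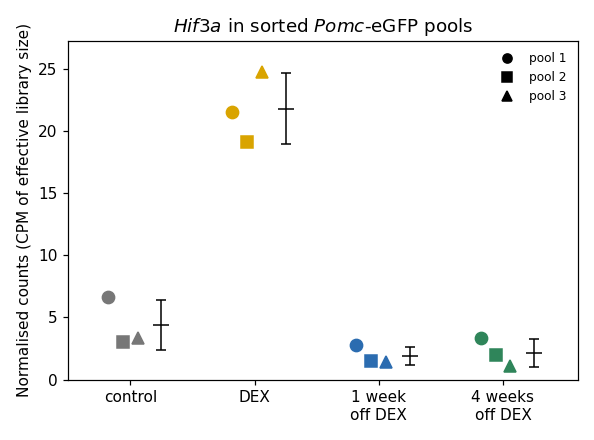
*Hif3a* per pool in normalised counts (vertical axis, linear from 0) for the 4 groups, with the mean and SD of each group (bar, n = 3 pools). The DEX pools lie between 19.1 and 24.8 and every other pool at 6.69 or below.

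The control pools of *Hif3a* averaged 4.37 ± 2.01 and the DEX pools 21.8 ± 2.84 (SD, n = 3). The average was 1.91 ± 0.734 after 1 week and 2.13 ± 1.13 after 4 weeks off DEX (SD, n = 3). Differences are given on a log2(value + 0.1) scale, where a low gene appears to change less than it did, and DEX was 2.37 above control (5.18-fold). The difference from DEX was −3.50 at 1 week and −3.42 at 4 weeks, which is 11.3-fold and 10.7-fold lower. The difference from control was −1.12 at 1 week and −1.05 at 4 weeks. These values rest on 221 to 260 reads per library in DEX, 26 to 85 in control and 12 to 36 after withdrawal, so the difference between control and the withdrawal groups rests on few reads. In these sorted pools, fewer cells of a kind and less RNA per cell cannot be told apart.

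*Fkbp5*, a textbook glucocorticoid target read here as a check of exposure, stood between 230 and 545 in the DEX pools and between 80.8 and 106 in the control pools. It was between 19.5 and 72.1 at 1 week and between 100.2 and 133 at 4 weeks. As a check of the sorted cells, all 6 corticotroph markers (*Pomc*, *Tbx19*, *Crhr1*, *Avpr1b*, *Pcsk1* and *Neurod1*) had reads in every group, but their summed level was lower in every DEX pool than in any other pool. It was between 35294 and 75533 normalised counts in control, between 5558 and 9417 in DEX, between 43869 and 286223 at 1 week and between 48721 and 80895 at 4 weeks. Outside the DEX pools nearly all of this sum was *Pomc*, which encodes the ACTH precursor and also drives the reporter. In the DEX pools the other markers made up a larger share of it. *Pomc* stood at 4241 to 8521 in the DEX pools against 34562 to 74260 in control (difference −3.41, limma adjusted p = 0.424). The sum thus follows *Pomc* and says little about the level of the other markers. The somatotroph transcripts *Gh* and *Ghrhr* summed to between 67667 and 265990 over all pools, so RNA of other pituitary cells was also present. This sum lay above that of the corticotroph markers in control (78973 to 221365), in DEX (67667 to 104322) and at 4 weeks (150409 to 265990). At 1 week the ranges of the 2 sums overlapped. At 4 weeks the thyrotroph sum (452 to 711) lay above that of control (123 to 277), as did the sum of 6 stem and folliculostellate markers (121 to 161 against 65.6 to 111). So did the lactotroph (86332 to 119783 against 31497.5 to 78966.5) and gonadotroph sums (645 to 968 against 551 to 632). The pericyte and fibroblast (182 to 293 against 97.7 to 158), macrophage (36.1 to 80.9 against 25.7 to 32.9) and endothelial sums (83.0 to 156 against 7.79 to 77.9) did as well. The somatotroph, melanotroph and erythroid sums at 4 weeks overlapped those of control. How many of all genes were higher in every 4 weeks pool than in control was not counted. At 1 week the macrophage sum (38.0 to 69.6) also lay above that of control, and the other sums overlapped those of control. The part of these shifts in the members' values was not tested.

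For the other two alpha subunits the DEX pools overlapped the control pools. *Hif1a*, which encodes the alpha subunit found in most cell types, had 168, 123 and 40.3 normalised counts in control and 164, 129 and 145 in DEX. It had 148, 84.4 and 56.3 at 1 week and 119, 95.6 and 84.5 at 4 weeks. The 3 pools at 4 weeks all lay below the lowest DEX pool, which 9.67% of all 24736 tested genes did as well, and in every other comparison the pools of *Hif1a* overlapped. The DEX minus control difference was 0.63 (limma, log2 scale, 95% interval −0.29 to 1.55, adjusted p = 0.850), and without control pool 3, the lowest pool, it was 0.02.

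*Epas1*, which encodes the alpha subunit best known from endothelium, had 4.72, 5.18 and 12.6 normalised counts in control and 4.72, 7.11 and 5.38 in DEX. It had 2.95, 5.23 and 11.6 at 1 week and 9.15, 5.91 and 6.50 at 4 weeks. The groups overlapped, and the highest pools were control pool 3 and 1 week pool 3. The DEX minus control difference was −0.25 (limma, log2 scale, 95% interval −1.30 to 0.79, adjusted p = 0.950), and it was 0.19 without control pool 3.

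The summed level of 10 endothelial markers (*Pecam1*, *Cdh5*, *Tek* and others, all with reads in every group) was read beside *Epas1*. It was 77.9 in control pool 3 against 7.79 and 37.8 in the other control pools, and 191 in 1 week pool 3 against 28.5 and 37.0 in the other pools of that group. In the DEX pools the sum was between 6.63 and 11.2, and at 4 weeks it was between 83.0 and 156. Its part in the values of *Epas1* was not tested.

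Set per kilobase of exon, so that genes of different length could be compared, *Hif1a* was the most abundant alpha subunit in every pool. *Hif3a* made up 2.05% to 5.23% of the summed alpha subunit level per kilobase in the control pools and 10.1% to 12.6% in the DEX pools. It made up between 1.47% and 1.82% at 1 week and between 1.03% and 2.23% at 4 weeks. The DEX range of *Hif3a* lay above those of the other groups, which restates the levels by which the set was chosen. *Hif1a* still held between 84.1% and 87.3% of the sum in DEX.

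*Arnt*, the shared beta subunit, had 41.9, 44.6 and 23.8 normalised counts in control and 50.5, 48.8 and 37.3 in DEX. It had 42.9, 49.7 and 25.9 at 1 week and 43.4, 36.2 and 27.9 at 4 weeks. The groups overlapped, with control pool 3 and 1 week pool 3 lowest. The DEX minus control difference was 0.35 (limma, log2 scale, 95% interval −0.31 to 1.01, adjusted p = 0.890).

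The prolyl hydroxylase genes covered a wide range of levels. *Egln3*, whose product is a prolyl hydroxylase that HIF itself induces in many cells, had 2.12, 1.53 and 4.57 normalised counts in control and 0.994, 1.06 and 0.785 in DEX. It had 2.76, 1.40 and 1.11 at 1 week and 2.77, 1.31 and 2.35 at 4 weeks. The 3 DEX pools were the lowest of all 12 pools.

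*Egln3* was thus the single other member, out of 9, whose DEX and control pools did not overlap, where 6.23% of all tested genes lay lower in every DEX pool and 6.61% higher. Its DEX minus control difference was −1.30 (limma, log2 scale, 95% interval −2.50 to −0.10), with an unadjusted p of 0.0351 and an adjusted p of 0.698. The 4 weeks minus DEX difference was 1.05 (95% interval −0.15 to 2.25, limma adjusted p = 0.599), also without overlap, and the 1 week pools likewise all lay above the DEX pools. Against DEX, 6.97% of all genes were higher in every pool at 1 week and 9.8% at 4 weeks, and 6.87% were lower in every pool at 1 week. Only 7 to 13 reads of *Egln3* stood behind each DEX value, and without control pool 3 the difference from control was −0.87.

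*Egln1*, which encodes the hydroxylase that limits HIF in most tissues, had 3.93, 6.36 and 13.3 normalised counts in control and 3.98, 2.53 and 4.60 in DEX. It had 5.51, 3.82 and 16.2 at 1 week and 3.42, 5.25 and 9.65 at 4 weeks. The groups overlapped, and control pool 3 and 1 week pool 3 were the highest. The DEX minus control difference was −0.93 (limma, log2 scale, 95% interval −2.14 to 0.28, adjusted p = 0.827), and −0.47 without control pool 3.

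*Egln2*, the most abundant hydroxylase gene of the set, had 76.1, 66.0 and 95.5 normalised counts in control and 67.4, 74.3 and 122 in DEX. It had 70.8, 136 and 66.7 at 1 week and 65.3, 73.1 and 82.1 at 4 weeks. The pools overlapped in all comparisons, and the DEX minus control difference was 0.12 (limma, log2 scale, 95% interval −0.53 to 0.76, adjusted p = 0.964).

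*Vhl*, which encodes the substrate receptor of the ligase, had 29.2, 34.3 and 28.7 normalised counts in control and 23.3, 26.6 and 41.4 in DEX. It had 30.8, 45.0 and 28.1 at 1 week and 31.3, 43.2 and 42.7 at 4 weeks. Its DEX minus control difference was −0.06 (limma, log2 scale, 95% interval −0.64 to 0.53, adjusted p = 0.989), with overlapping pools.

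*Hif1an*, the asparaginyl hydroxylase gene, had 36.8, 34.5 and 12.4 normalised counts in control and 33.4, 34.5 and 55.8 in DEX. It had 30.3, 61.1 and 17.7 at 1 week and 27.6, 35.5 and 33.3 at 4 weeks. Control pool 3 and 1 week pool 3 were again the lowest. The DEX minus control difference was 0.67 (limma, log2 scale, 95% interval −0.26 to 1.61, adjusted p = 0.836), and 0.17 without control pool 3.

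*Vegfa* had 15.7, 24.9 and 15.4 normalised counts in control and 14.2, 24.6 and 24.1 in DEX. It had 16.7, 7.26 and 12.5 at 1 week and 22.6, 15.3 and 16.2 at 4 weeks. The lowest pools of the series were 1 week pools 2 and 3, but 1 week pool 1 overlapped every other group. The DEX minus control difference was 0.16 (limma, log2 scale, 95% interval −0.58 to 0.90, adjusted p = 0.957). The 1 week minus DEX difference was −0.82 (95% interval −1.56 to −0.08, limma adjusted p = 0.393), and that against control was −0.66 (95% interval −1.40 to 0.08). Without 1 week pool 2 the difference from DEX was −0.49.

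**Figure D2:**
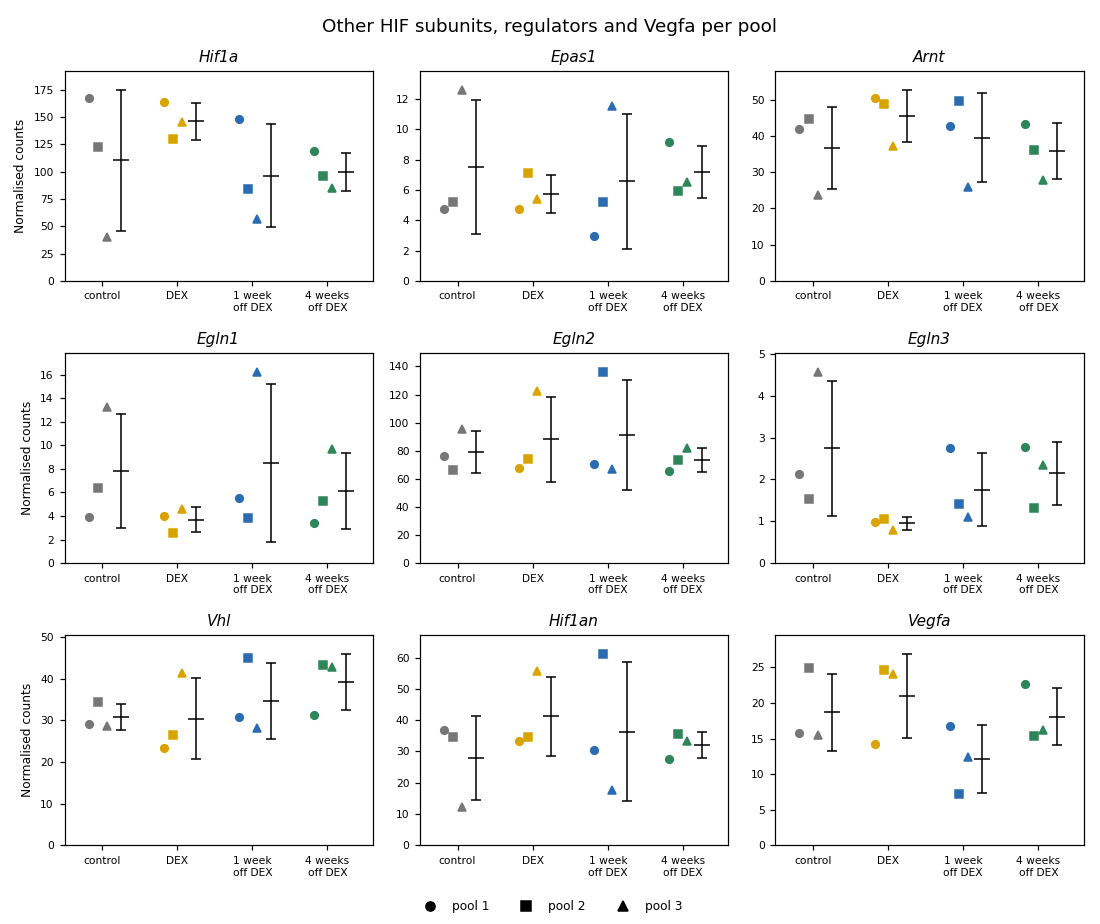
Normalised counts per pool (vertical axes, linear from 0) of the 9 members other than *Hif3a* in the 4 groups, with the mean and SD of each group (bar, n = 3 pools). *Egln3* is the gene whose DEX pools all lie below the control pools, and pool 3 of control and of the 1 week group is lowest for *Hif1a*, *Arnt* and *Hif1an* and highest for *Epas1* and *Egln1*.

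None of the 9 members other than *Hif3a* had an adjusted p under 0.05 across the groups (F test in limma), a threshold at which 0.315% of all genes were called, and none had an unadjusted p under 0.05. The smallest adjusted p was 0.737, for *Vegfa*. In DEX against control 0 of the 9 were called (limma, 0.121% of all genes called) and 1, *Egln3*, had an unadjusted p under 0.05, as 6.8% of all genes did. The median difference of the 9 was 0.12, against −0.02 over all genes, with 5 higher and 4 lower. In 1 week and 4 weeks against DEX limma also called 0 of the 9, where 0.433% and 0.873% of all genes were called, with 1 unadjusted p under 0.05 at 1 week (*Vegfa*, where 10.8% of all genes had such a p) and none at 4 weeks. Against control at 1 and 4 weeks, and between these times, 0 of the 9 were called and none had an unadjusted p under 0.05, and limma called 0% of all genes. On the recovered reads, across the groups and in DEX against control, edgeR's quasi-likelihood test called 0 of the 9 (0.639% and 0.17% of all genes), as did its likelihood ratio test (4.18% and 1.11%) and DESeq2 (2.97% and 0.768%). In DEX against control the lowest end of the 95% intervals of the 9 was −2.50 (*Egln3*) and the highest 1.61 (*Hif1an*). The interval of *Vhl* reached only from −0.64 to 0.53. Values within the interval of a gene were not told apart by these data.

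**Figure D3:**
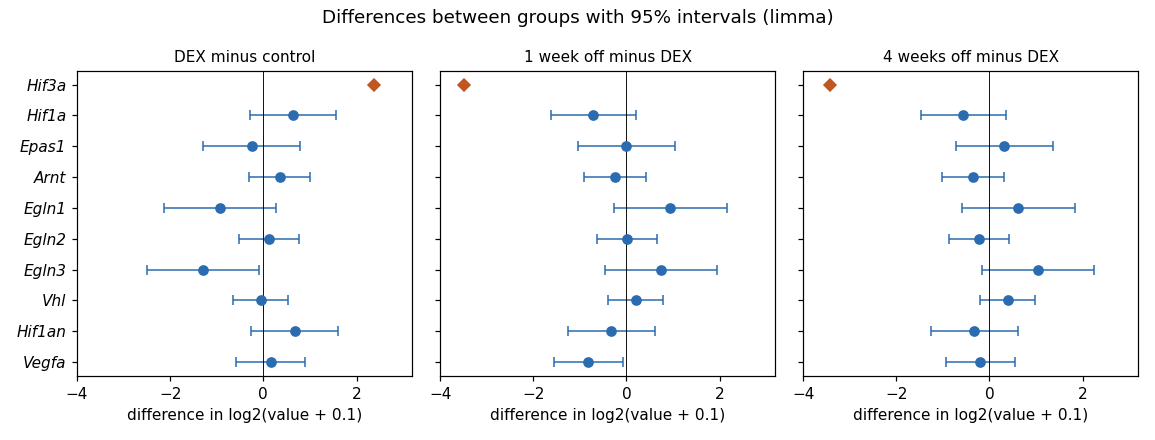
Differences in log2(value + 0.1) between groups (horizontal axis) for the 10 members in 3 comparisons, with the 95% interval from limma for the 9 that were tested (bars). *Hif3a* (diamond) is shown without an interval because its pattern chose the set, at 2.37, −3.50 and −3.42, and *Egln3* lies at −1.30 in DEX minus control.

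Control pool 3 and 1 week pool 3 stood apart in 5 of the 10 members. They were the 2 lowest of the 12 pools for *Hif1a*, *Arnt* and *Hif1an* and the 2 highest for *Epas1* and *Egln1*, while 9.24% and 9.6% of all tested genes had them as the 2 lowest and the 2 highest. Their reads on genes, 10002819 and 9057793, lay within the range of the series, from 7719894 to 12848078. On the first principal component of all tested genes they lay at 88.4 and 132, where no other library was above 14.8 and the lowest, DEX pool 3 and 1 week pool 2, lay at −87.4 and −81.3. The nuclear transcript *Malat1* had 14167 normalised counts in 1 week pool 3, the highest value of the series. Control pool 3 came next at 5196, close to the 5025 of 1 week pool 1. In 1 week pool 3, mitochondrial genes took 2.55% of the reads, against 0.825% to 1.65% in the other libraries. The part of these measures in the members' values was not tested. Leaving both out brought no member other than *Hif3a* past the test over the 4 groups, and *Hif3a* then stood 2.23 above control.

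The order of the members' levels per kilobase changed with *Hif3a* alone moving more than 2 places. In control it ran from *Egln2* (28.3) and *Hif1a* (18.7) over *Vhl* (10.3), *Arnt* (4.59), *Vegfa* (4.36) and *Hif1an* (4.23, in mean normalised counts per kilobase) to *Egln1* (2.19), *Epas1* (1.34), *Egln3* (1.03) and *Hif3a* (0.652). Neighbours in this order overlapped between pools except *Vhl* and *Arnt*. In DEX *Hif3a* (3.25 per kilobase) stood at rank 7, with pools overlapping those of *Vegfa* above it and not overlapping those of *Egln1* below it. It was last again at 1 week (0.285), without overlap with *Egln3*, and last at 4 weeks (0.317), with overlap. These moves of *Hif3a* restate the levels by which the set was chosen, and they are a description only.

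Of 15755 tested genes with a mean of at least 1 normalised count, those whose log2 values followed *Hif3a* most closely over the 12 libraries were *Srgap2* (Pearson r = 0.971), *C530008M17Rik* (0.961), *Gm38304* (0.956), *Frmd4a* (0.952) and *Kcnh4* (0.950). *Srgap2*, which encodes a GTPase activating protein of neurons, ranged from 25.6 to 27.5 normalised counts in DEX, from 15.1 to 19.7 in control and from 9.65 to 14.3 after withdrawal. *Kcnh4*, a voltage-gated potassium channel gene, ranged from 11.7 to 30.8 in DEX and stood at 2.52 or below elsewhere. The libraries share their treatment groups, so these values describe a common course and carry no test. Among the other members the closest was *Hif1a* (r = 0.578, rank 1288 of the 15755 genes), and the values of *Egln1* (−0.56), *Egln3* (−0.47), *Vhl* (−0.45) and *Epas1* (−0.20) were negative.

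Partners and cofactors of the HIFs, a list of 23 genes that takes in other bHLH-PAS proteins, the parts of the *Vhl* ligase and the coactivators, held no gene past the tests. Of the 23, 21 passed the filter on low values, with *Sim1* listed at 0 in every pool and *Sim2* too low. Limma called 0 of the 21 over the 4 groups, and 0 had an unadjusted p under 0.05. In DEX against control the median difference was 0.06, with 12 higher and 9 lower and none called. Among genes with a mean of at least 1 normalised count, the 3 with the largest difference from control were *Npas2*, *Crebbp* and *Arntl2*. *Npas2*, a clock protein of the family, was at −0.69 and *Crebbp*, a histone acetyltransferase, at −0.64. *Arntl2*, a paralogue of the clock protein gene *Arntl*, was at −0.60. Their adjusted p lay between 0.882 and 0.891 (limma). *Crebbp* had 87.3 and 108 normalised counts in control pool 3 and 1 week pool 3, and 35.7 or less in the other pools.

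*Arnt2*, the neural paralogue of *Arnt*, was looked at after its values were seen. It had between 31.7 and 36.2 normalised counts in the DEX pools and between 26.0 and 30.0 in the control pools, without overlap, as 6.61% of all genes had. It stood between 19.7 and 32.0 at 1 week and between 22.6 and 28.0 at 4 weeks.

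Target genes of the HIFs, a list of 40 genes of glycolysis, glucose and lactate transport, mitophagy, pH control and matrix formation, also held no gene past the tests. Of the 40, 39 were tested and *Epo* was listed at 0 in every pool. Limma called 0 of the 39 over the 4 groups, with 2 at an unadjusted p under 0.05. In DEX against control the median difference was 0.16, against −0.02 over all genes, with 25 higher and 14 lower, 1 at an unadjusted p under 0.05 and none called. Among the genes of mean at least 1 normalised count with the largest differences were *Adm*, the vasodilator peptide adrenomedullin (−1.53, limma adjusted p = 0.674), and *Lox*, a collagen cross-linking enzyme (−0.90, limma adjusted p = 0.906). *Adm* had 5.74, 4.59 and 3.81 normalised counts in control against 2.90, 2.62 and 0.449 in DEX, without overlap, as for 6.23% of all genes. Only 4 to 35 reads of *Adm* stood behind the DEX values. It stood at 4.85, 1.40 and 2.11 at 1 week and at 3.23, 3.06 and 2.35 at 4 weeks.

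The VEGF family and its receptors, 9 genes that were all tested, held the single gene of the 3 lists past the test over the 4 groups, *Kdr*, the main VEGF receptor of endothelium. *Kdr* had 3.30, 9.54 and 6.42 normalised counts in control, 0.994, 2.698 and 0.673 in DEX, 6.27, 14.0 and 26.8 at 1 week and 25.6, 23.8 and 10.6 at 4 weeks. Every DEX pool lay below every other pool. Of all tested genes, 6.23% were lower in every DEX pool than in control. Against DEX, 6.97% were higher in every pool at 1 week and 9.8% at 4 weeks. The adjusted p of *Kdr* across the groups was 0.0263 (F test in limma, 0.315% of all genes called). Against DEX *Kdr* was 3.33 higher at 1 week (log2 scale, limma adjusted p = 0.0191, 0.433% of all genes called). It was 3.81 higher at 4 weeks (limma adjusted p = 0.00832, 0.873% of all genes called). DEX minus control was −2.17 (limma adjusted p = 0.281). The call over the 4 groups was lost in each of 4 fits, those without DEX pool 1, DEX pool 3, 4 weeks pool 1 or 4 weeks pool 2, which left 0 of the 9 called. The study listed *Kdr* among its changed genes from these same samples, so the call is not independent evidence.

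Over the 9 genes of the VEGF list the median difference of DEX from control was −0.28, with 2 higher and 7 lower and none called. The receptor genes *Flt1* and *Flt4* were low in control and DEX. *Flt1* had between 0.00 and 0.572 normalised counts in the DEX pools, on 0 to 7 reads, and between 0.236 and 2.28 in control, with 0.570 to 7.12 at 1 week and 1.53 to 2.49 at 4 weeks. *Flt4*, the receptor of lymphatic endothelium, had between 0.00 and 0.818 in DEX and between 0.157 and 0.979 in control. It had 0.570 to 4.45 at 1 week and 1.71 to 4.49 at 4 weeks. Its 4 weeks pools lay above every control and DEX pool. Against DEX, 9.8% of all tested genes were higher in every 4 weeks pool, and the share against control was not counted. At 4 weeks the difference from DEX was 3.05 for *Flt1* and 2.96 for *Flt4* (limma adjusted p = 0.195 and 0.180). Neither passed the test over the 4 groups (limma adjusted p = 0.464 and 0.352). All 10 endothelial markers had a mean difference below 0 in DEX against control (0 called by limma, median −1.49), and all 10 were above DEX at 1 week (0 called, median 2.98, where 0.433% of all genes were called) and at 4 weeks (5 called, median 3.83, where 0.873% of all genes were called). Their part in the change of *Kdr* was not tested.

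**Figure D4:**
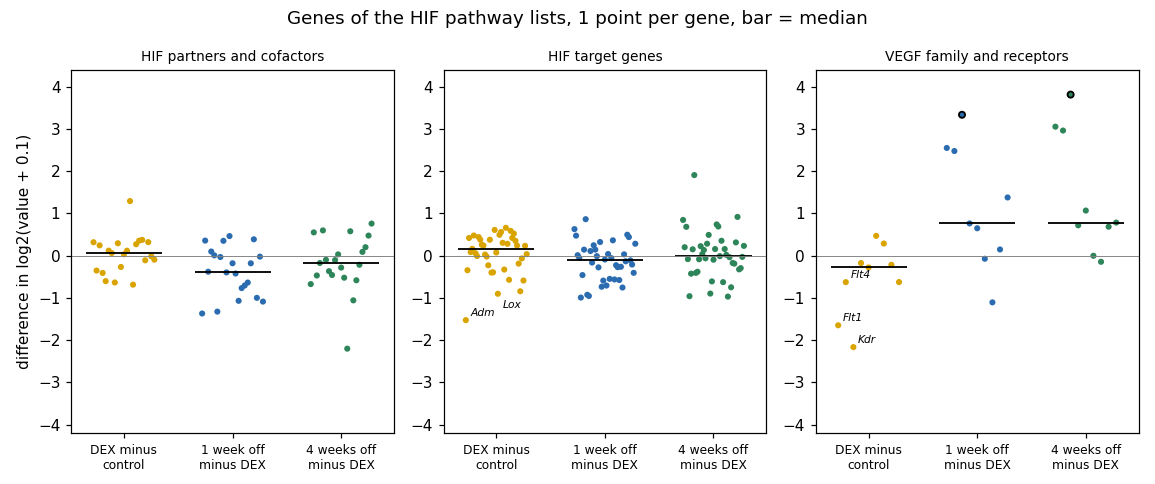
Differences in log2(value + 0.1) (vertical axis) of the tested genes of the 3 HIF pathway lists in 3 comparisons, 1 point per gene, with the median as a bar and genes called by limma ringed. The medians of the partners and of the target genes in DEX minus control are 0.06 and 0.16, and the ringed gene is *Kdr*, at 3.33 and 3.81.

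*Hif1a* shares 148 exonic bases with *Gm49321*, a gene on the same strand that was not analysed here under that name. It also shares 330 exonic bases with *Gm15283*, a gene on the opposite strand, whose level ranged from 7.78 to 36.7 normalised counts. The counting was set to be strand specific, while the library kit is not known to keep the strand, so reads of *Hif1a* and *Gm15283* cannot be told apart in that stretch. *Egln2* overlaps *Cyp2t4* by 11 exonic bases, and the other members share none in GENCODE release M21.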

How the data were processed

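RNA of sorted *Pomc*-eGFP positive cells was amplified by SMART-V4, made into Nextera XT libraries and sequenced by the authors. Per the labels and the methods of the study, reads were trimmed with Trim Galore 0.6.5, aligned to GRCm38 with STAR 2.7.1a, counted on Ensembl release 98 genes with featureCounts 2.0.0 (minimum mapping quality 20, strand specific) and scaled in edgeR. The deposited values are a normalised signal, the CPM of the effective library size, which carries the TMM scaling of the authors (scaling factors from 0.702 to 1.21). They had been planned for as unscaled CPM, and the planned test still suited them. Dividing by the value of 1 read (0.0787 to 0.127) gave whole reads for 100.0% of 271881 values above 0, within a tolerance of 1e-06 reads. Reads on genes ranged from 7719894 to 12848078 per library (median 10227503.5). The libraries carry no molecular identifiers, so read numbers show counting depth only. No pair of libraries of a group was alike within sampling noise.

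Here, log2(value + 0.1) of the 24736 genes above 0.1 in at least 3 libraries was fitted with limma 3.58.1 (R 4.3.3, lmFit, then eBayes with its trend option). The model held the 12 libraries in 4 groups, with an F test over the 3 contrasts with control and moderated tests of 6 contrasts. P-values were adjusted by Benjamini-Hochberg over all genes tested, and an adjusted p under 0.05 was called. Intervals are 95% intervals of the fit. The p-values measure the spread between pools. Groups and pool numbers came from the sample labels. The members and the lists were chosen with earlier results of these data known. Named in the text are all 10 members, of each list the genes called over the 4 groups or in DEX against control and the 3 of mean at least 1 with the largest difference from control, and the 5 genes most like *Hif3a*, except 1 gene of a list that is not reported here. Lengths, overlaps and gene coordinates are from GENCODE M21 on GRCm38, and promoter sequences from RefSeq on GRCm38.p6. The tests were run on simulated counts with the same spread for every gene and with changes only in genes of many reads. That check does not cover members with few reads or pools that stood apart. Alternatives were pseudocounts of 0.5 and 1, no filter, a filter at 1, median-ratio scaling, array weights, a model of only the groups compared, a replicate block, each library left out, 3 count tests on the recovered reads (DESeq2 1.42.0 and, in edgeR 4.0.16, the likelihood ratio test and the quasi-likelihood test), and, chosen after seeing the data, quantile normalisation and a fit without control pool 3 and 1 week pool 3.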

Additional observations from a re-analysis of the deposited data

How the results depend on the processing

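The count of members called, 0 of the 9 other than *Hif3a*, stayed at 0 in the test over the 4 groups and in all 6 contrasts under all alternatives run. For *Hif3a* the difference of DEX from control was 2.14 with a pseudocount of 1 and between 2.17 and 2.72 with 1 library left out. Its direction was fixed by the choice of the set and is no sign of stability. Over the 4 groups the likelihood ratio test of edgeR called 3 partners and cofactors, 2 target genes and 3 genes of the VEGF list (4.18% of all genes). Array weights called 2 target genes and 2 VEGF genes (4.32% of all genes), DESeq2 1 target gene (2.97%), and the fit without control pool 3 and 1 week pool 3 called 1 target gene (1.11%), against 0.315% of all genes in limma as reported. With 1 library left out the VEGF list held 0 to 1 called genes. In DEX against control the likelihood ratio test called 1 target gene and 1 VEGF gene (1.11% of all genes). Small differences of DEX against control changed sign. That of *Epas1* was 0.069 with array weights and 0.19 without control pool 3 and 1 week pool 3, and lay between −0.51 and 0.19 with 1 library left out. That of *Vegfa* was −0.036 with array weights, that of *Egln2* lay between −0.14 and 0.29, and that of *Vhl* between −0.30 and 0.11 with 1 library left out. The causes were not tested. Over the 4 groups the deviations of pools with the same number had correlations from −0.29 to 0.40, and the numbers were not taken as pairs. Between control and 1 week each same-numbered pair was over 0.1 (0.202, 0.136 and 0.397), and in that comparison the fit with the replicate block also called 0 of the 9 members and 0 of all genes. With the replicate number as a block over the 4 groups, the difference of *Hif3a* stayed at 2.37, 0 of the 9 members were called, and the calls over the 4 groups went from 78 to 85 of all genes. There were 3 pools per group, and few reads for *Egln3* and *Hif3a*. The data do not tell apart the values within the interval of a gene, and no interval was given for *Hif3a*.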
